A study of Arabidopsis thaliana with 10 samples.

Results

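The 10 genes described here encode the enzymes and core subunits that methylate lysine 4 of histone H3 in Arabidopsis thaliana, and were chosen by locus from the 23615 genes listed in each RNA-seq library. They are the trithorax-type genes ATX1 (AT2G31650), ATX2 (AT1G05830), ATX3 (AT3G61740), ATX4 (AT4G27910) and ATX5 (AT5G53430), the trithorax-related genes ATXR3 (AT4G15180) and ATXR7 (AT5G42400), and the subunit genes WDR5A (AT3G49660), ASH2R (AT1G51450) and RBL (AT3G21060). The files list ATX3, ATX4, ATX5, ATXR3, ATXR7 and ASH2R under the names SDG14, SDG16, SDG29, SDG2, SDG25 and TRO. All 10 were listed in every library, and all 10 passed the filter that left 18858 measured genes (at least 1 FPKM, a fragment count normalised to transcript length and library depth, in at least 1 library).

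The libraries came from inflorescence stems that had reached 20 cm, on plants kept at 22 °C with 16 h of light and 8 h of dark. One library was labelled as segment II (5 to 7 cm from the top) of the mutant atx1. The other 3 were from the wild type (WT, Col), at segments I (0 to 3 cm), II (5 to 7 cm) and III (10 to 12 cm). The allele carried by atx1, the part of the gene it affects and the number of plants behind each library are not given in the sources used here. With 1 library per group there is no replicate check, so no test between groups could be made and each difference describes these libraries alone.

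Methylation of this lysine marks the chromatin of transcribed genes, and trimethylation is concentrated near their 5′ ends. A SET-domain enzyme carries out the transfer, and it works in a COMPASS-like complex with the core subunits WDR5, ASH2 and RBBP5, whose Arabidopsis counterparts are WDR5A, ASH2R and RBL. Plants have several such enzymes with partly separate targets. ATX1 is known for roles in flowering, floral organ identity and stress responses, and ATXR3 is known as a major source of trimethylation across the plant.

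The steps between low values of short genes put the depth at about 18900000 to 20200000 fragments per library. Markers of fibre and vessel walls (SND1, NST1, CESA4, CESA7 and CESA8) were present in all 4 libraries, with a summed level of 453.07 FPKM in the library labelled atx1 II and of 99.86, 1452.66 and 1791.63 FPKM in WT I, WT II and WT III. The summed level of 5 floral organ markers was 2.6 FPKM in the library labelled atx1 II and 9.09, 3.03 and 2.24 FPKM in the WT segments. Of these, AP1 was at 2.11 FPKM in the library labelled atx1 II and at 6.16, 2.66 and 1.93 FPKM in WT I, WT II and WT III. SEP3 was at 0.11 FPKM in the library labelled atx1 II and at 1.01, 0.37 and 0.31 FPKM in the same wild-type segments. AP3 was listed at 0 in all but WT I. AG and PI were listed at 0 in WT II and WT III, and both were at 0.19 FPKM in the library labelled atx1 II. Of 3 root hair markers 1 was listed, COBL9, at 0.09 FPKM in WT I and listed at 0 elsewhere. The 6 cell division markers summed to 21.4 FPKM in the library labelled atx1 II and to 141.31, 29.13 and 52.82 FPKM in WT I, WT II and WT III. In whole segments, fewer cells of a type and less RNA per cell cannot be told apart.

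ATX1, the gene whose mutant the study sampled, stood at 21.76 FPKM in the library labelled atx1 II, against 4.02 in WT I, 6.09 in WT II and 3.54 in WT III. The library labelled as the mutant was the highest of the 4, at 3.57 times the highest wild-type value, which the label alone does not account for. It is therefore named by its label in all that follows, and any direction taken from it depends on that label. One FPKM value per gene carries no information on which stretch of the transcript the fragments came from, so the label itself could not be checked from this level. Against WT II the difference was 1.68 on the log2(FPKM + 1) scale, on which the change of low genes is understated. Among 6894 measured genes whose mean over the 4 libraries lay within 2-fold of that of ATX1, 292 (4.24%) differed upward by as much or more. By level, ATX1 stood above 66.4% of measured genes in the library labelled atx1 II, against 25.7%, 37.9% and 23.4% in WT I, WT II and WT III.

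**Figure D1:**
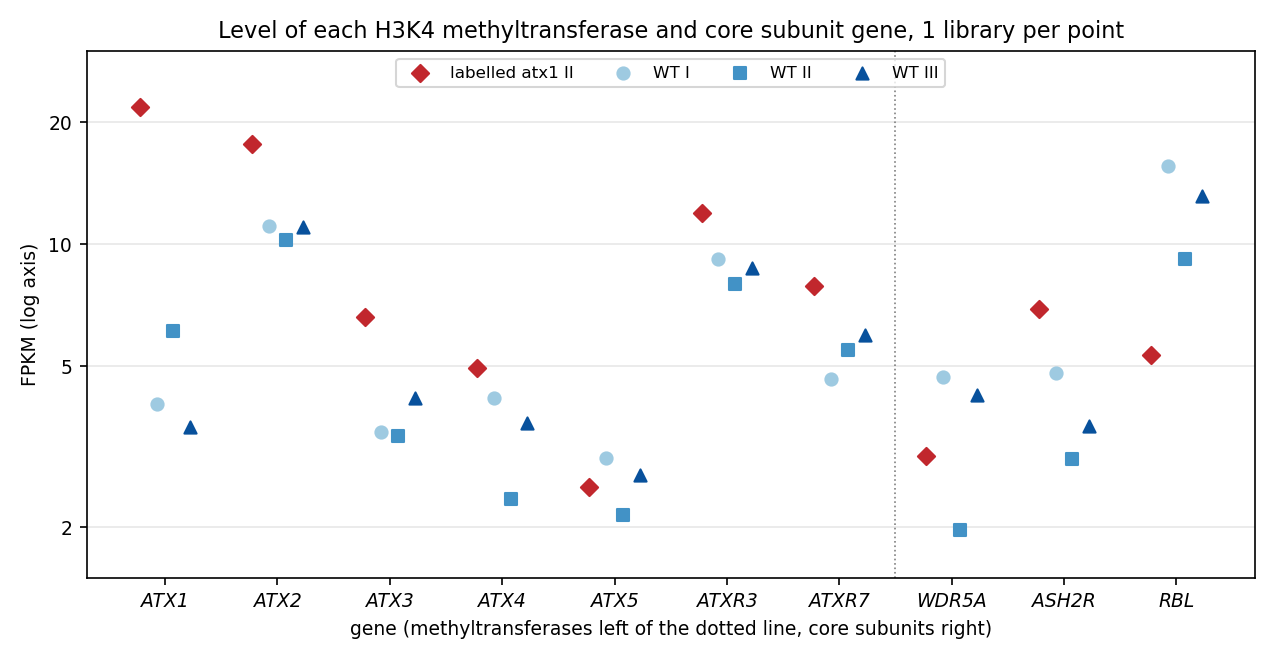
Level of each of the 10 genes in FPKM (log axis) in the library labelled atx1 II (red diamonds) and in WT I, WT II and WT III (blue circles, squares and triangles), 1 library per point. ATX1 lies at 21.76 FPKM in the library labelled atx1 II, above its wild-type range of 3.54 to 6.09, and RBL lies at 5.33 FPKM, below its wild-type range of 9.19 to 15.55.

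In the wild-type stem ATX1 was at 6.09 FPKM in WT II against 4.02 in WT I, a difference of 0.50, and at 3.54 FPKM in WT III against 6.09 in WT II, a difference of -0.64 (both on the log2 scale). It was the single gene of the 10 to be highest in segment II, where 16.9% of measured genes had their highest wild-type value. Of 6894 measured genes of like mean level, 298 (4.32%) differed downward by as much or more between WT III and WT II. Between WT II and WT I, 1215 (17.6%) differed upward by as much or more. The mean used for this match includes the library labelled atx1 II, where ATX1 was highest, so it lies above the wild-type level of ATX1. Under median-of-ratios scaling, an alternative that puts the median ratio of the libraries at 1, ATX1 remained highest in segment II, and ATX2 and ATXR7 then were as well, beside 30.2% of measured genes. No wild-type difference of ATX1 reached 2-fold.

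ATX2, the closest relative of ATX1, was the steadiest of the 10 in the wild type. It was at 17.67 FPKM in the library labelled atx1 II and at 11.05, 10.23 and 11.04 FPKM in WT I, WT II and WT III. The wild-type values spanned 1.08-fold, and the library labelled atx1 II lay above all of them, 1.6 times the highest. The difference from WT II was 0.73, short of 2-fold, and 0.47 under median-of-ratios scaling. The sources used here do not say how reads that match more than 1 relative were assigned, so the levels of ATX1 and ATX2, and those of ATX3, ATX4 and ATX5 among themselves, are uncertain to that extent.

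ATX3, ATX4 and ATX5 form the second branch of the trithorax-type genes and are known to act redundantly in di- and trimethylation. They were low in every library. ATX3 was at 6.6 FPKM in the library labelled atx1 II, against 3.44, 3.35 and 4.18 FPKM in WT I, WT II and WT III. ATX4 was at 4.93 FPKM in the library labelled atx1 II, against 4.16, 2.35 and 3.61 FPKM in the same wild-type segments. For both, the library labelled atx1 II lay above all 3 wild-type values, and the difference from WT II was 0.80 for ATX3 and 0.82 for ATX4. ATX5, at 2.51 FPKM, against 2.97, 2.14 and 2.69 FPKM in the wild type, lay within the wild-type range. Its difference from WT II was 0.16, and -0.04 under median-of-ratios scaling, so no direction can be given. ATX5 was also the lowest of the 10 genes in every library except WT II, where WDR5A was lower.

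ATXR3 and ATXR7 are SET-domain enzymes outside the trithorax-type group, and ATXR7 is known for keeping the flowering repressor gene FLC active. ATXR3 was at 11.9 FPKM in the library labelled atx1 II and at 9.2, 7.96 and 8.75 FPKM in WT I, WT II and WT III, the third highest of the 10 in each library. ATXR7 was at 7.88 FPKM in the library labelled atx1 II and at 4.65, 5.49 and 5.95 FPKM in the wild-type segments. It alone was ordered I, II, III from low to high in the wild type, as were 25.7% of measured genes, and the top of that order changed under median-of-ratios scaling, which put WT II highest. Both genes were above all 3 wild-type values in the library labelled atx1 II, by 1.29 and 1.32 times the highest. Against WT II their differences, 0.53 and 0.45, exceeded the median of all measured genes (0.28) by 0.25 and 0.18.

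The 3 core subunit genes all had their lowest wild-type value in segment II, under both scalings, and differed in direction in the library labelled atx1 II against WT II. RBL, the RBBP5 counterpart, was at 5.33 FPKM in the library labelled atx1 II, against 15.55, 9.19 and 13.13 FPKM in WT I, WT II and WT III. The library labelled atx1 II was the lowest of the 4, at 0.34 times the highest and 0.58 times the lowest wild-type value. Relative to WT II, RBL differed by -0.69, and by -0.94 under median-of-ratios scaling, which is within 2-fold in both cases. Among 7227 measured genes of like mean level, 799 (11.1%) differed downward from WT II by as much or more, as deposited. Against WT III and WT I, RBL was lower by 2-fold, with differences of -1.16 and -1.39. Those comparisons also differ in stem segment, and the share of measured genes lower by 2-fold in them was not counted. RBL was the only one of the 10 genes lower in the library labelled atx1 II than in WT II, beside 35.3% of measured genes, and the other 9 were higher, beside 64.3%. Under median-of-ratios scaling ATX5 was lower as well, beside 47.9% of measured genes.

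ASH2R, the ASH2 counterpart, whose other name TRO stands for TRAUCO, was at 6.92 FPKM in the library labelled atx1 II, against 4.8, 2.95 and 3.56 FPKM in WT I, WT II and WT III. That library was the highest of the 4. The FPKM ratio to WT II was 2.35, and the difference just reached 2-fold on the log2(FPKM + 1) scale, while median-of-ratios scaling gave a difference of 0.77, which did not. Among 5092 measured genes of like mean level, 903 (17.7%) differed upward from WT II by as much or more, as deposited. Within 2-fold on the log2(FPKM + 1) scale, ATX4 and ATX3 came next at 0.82 and 0.80. Their plain FPKM ratios to WT II were 2.1 and 1.97, so that of ATX4 was past 2-fold. Set against WT I in place of WT II, the difference of ASH2R was 0.45.

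WDR5A, a WD40-repeat scaffold protein, was at 3 FPKM in the library labelled atx1 II, against 4.71, 1.97 and 4.24 FPKM in WT I, WT II and WT III. It had the widest wild-type span of the 10, 2.39-fold, and its value in the library labelled atx1 II lay within that span. Segment II was the low one, with a difference of -0.94 for WT II against WT I and of 0.82 for WT III against WT II. Both lie just within 2-fold on this scale, whereas the plain FPKM ratios, 0.42 and 2.15, are past it. With a pseudocount of 0.1 in place of 1 the differences were -1.22 and 1.07. Against WT II the library labelled atx1 II differed by 0.43, but against WT I by -0.51 and against WT III by -0.39, so its direction turned with the wild-type segment chosen. Taken at 1 kb of effective length, the WT II value stands for about 37 fragments, and the exact Poisson 95% interval ran from 1.39 to 2.71 FPKM. The interval for WT I was 3.81 to 5.76 FPKM and that for WT III 3.37 to 5.27 FPKM, so neither overlapped that of WT II. These intervals cover counting error only, not the variation between plants.

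Between wild-type segments none of the 10 genes was called at 2-fold on the log2(FPKM + 1) scale, though WDR5A passed 2-fold with a pseudocount of 0.1 in both comparisons with WT II. For WT II against WT I, 0 of 10 were higher by 2-fold, beside 9.88% of measured genes, and 0 of 10 were lower, beside 16.1%. The median difference of the 10 was -0.26, and that of all measured genes -0.13. At 1.5-fold, 0 of 10 were higher, beside 18.2%, and 3 were lower, WDR5A, RBL and ATX4, beside 28.4%. For WT III against WT II, 0 were higher and 0 lower by 2-fold, beside 2.85% and 2.35% of measured genes, with a median of 0.22 for the 10 and 0.19 for all. At 1.5-fold, WDR5A was higher, beside 13.8% of measured genes, and ATX1 lower, beside 7.16%. WT III against WT I also gave 0 and 0, beside 12% and 12.4%, and again 0 and 0 at 1.5-fold, beside 21.9% and 22%. Here the 10 differences ran from -0.35 for ASH2R to 0.30 for ATXR7. Median-of-ratios scaling moved the median of all measured genes to 0.02 for WT II against WT I and to 0.01 for WT III against WT II, and that of the 10 genes to -0.11 and 0.07. Under it ATX2 and ATX3 changed sign in the first of these comparisons, and ATX2, ATXR3 and ATXR7 in the second.

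Segment II was the lowest wild-type segment for 8 of the 10 genes, all but ATX1 and ATXR7. The same held for 43.6% of measured genes. The count rested in part on scaling, since under the median of ratios it was 5 of 10, ATX4, ATX5, WDR5A, ASH2R and RBL, beside 30.5% of measured genes. The 3 subunit genes and ATX4 had the largest of these dips: relative to WT I, WT II differed by -0.94 for WDR5A, -0.70 for RBL, -0.62 for ATX4 and -0.55 for ASH2R. The cell division markers were low in the same segment, with a summed level of 29.13 FPKM in WT II against 141.31 FPKM in WT I, and their part in these differences was not tested. In WT III the markers summed to 52.82 FPKM, between WT II and WT I, and WDR5A was at 4.24 FPKM and RBL at 13.13 FPKM.

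**Figure D2:**
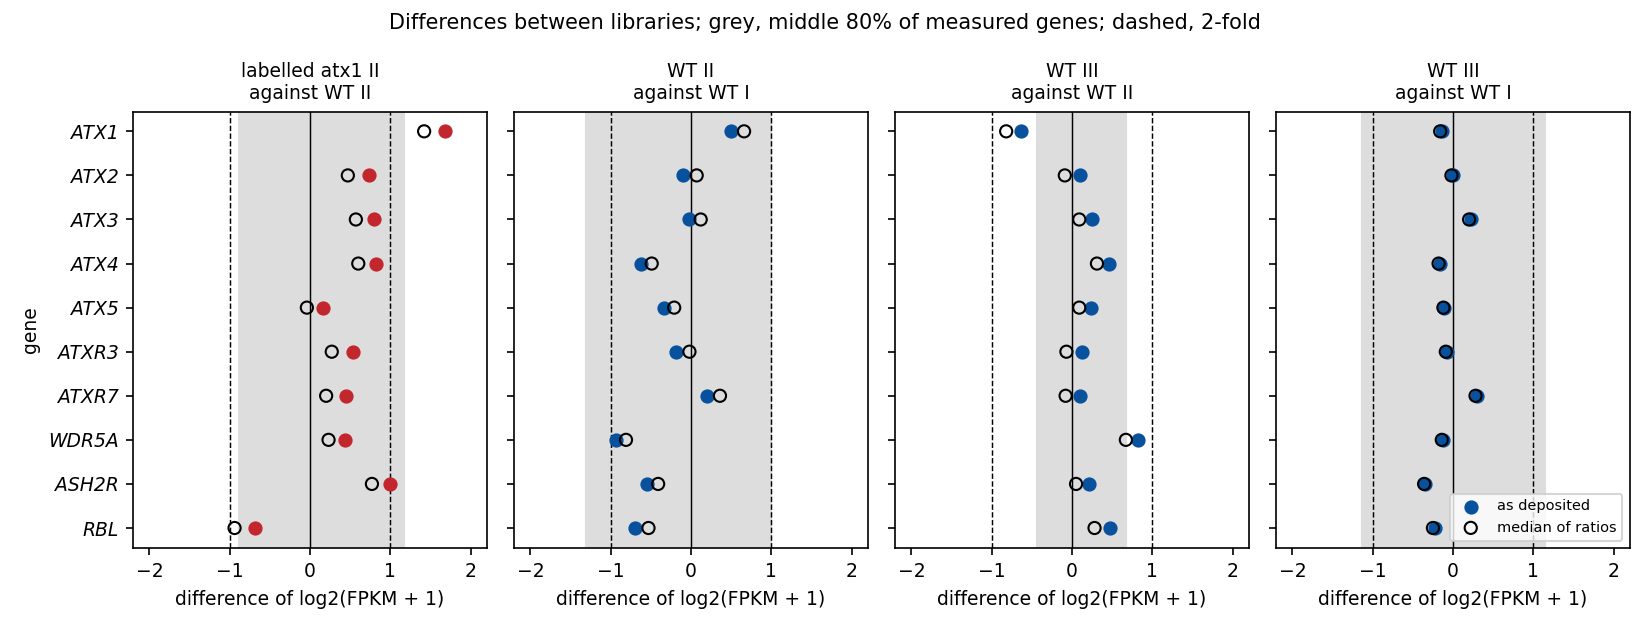
Difference of log2(FPKM + 1) for each of the 10 genes in the 4 comparisons, first-named library minus second, as deposited (filled) and after median-of-ratios scaling (open); grey marks the middle 80% of measured genes and dashed lines mark 2-fold. In the library labelled atx1 II against WT II, ATX1 at 1.68 lies right of the grey band, which runs from -0.88 to 1.17, and RBL at -0.69 is the single gene left of 0 as deposited.

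Between the library labelled atx1 II and WT II, 2 of 10 genes were higher by 2-fold, ATX1 and ASH2R, beside 14.1% of measured genes, and 0 were lower, beside 8.32%. At 1.5-fold, 5 were higher, ATX1, ATX2, ATX3, ATX4 and ASH2R, beside 32.2%, and RBL was lower, beside 15.6%. The median difference of the 10 genes was 0.63, against 0.28 for all measured genes. After median-of-ratios scaling, which brought the median of all genes to 0.03, the 10 had a median of 0.37 and ATX1 alone was higher by 2-fold, beside 9% of measured genes, and 0 were lower, beside 11.9%. In 7 of the 10, ATX1, ATX2, ATX3, ATX4, ATXR3, ATXR7 and ASH2R, the library labelled atx1 II lay above all 3 wild-type values, as in 39.9% of measured genes. The same 7 genes lay above all 3 after median-of-ratios scaling, beside 34% of measured genes. RBL was the 1 gene below all 3 wild-type values, beside 23.8% of measured genes, and ATX5 was there too after scaling, beside 30.4%.

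Ratios within a library do not depend on the scaling between libraries. The ratio of ATX1 to ATX2 was 1.23 in the library labelled atx1 II and 0.36, 0.6 and 0.32 in WT I, WT II and WT III, so ATX1 stood above ATX2 in the library labelled atx1 II and below it in each wild-type segment. Of the summed FPKM of the 7 methyltransferase genes, ATX1 made up 29.7% in the library labelled atx1 II, against 10.2%, 16.2% and 8.9% in the wild-type segments. ATX2 made up 24.1% in the library labelled atx1 II, against 27.2% to 28.0% in the wild type. ATXR3 made up 16.2%, against 21.2% to 23.3%. Both of these shares depend on the ATX1 value in the sum, and in FPKM both genes were above all their wild-type values. The sum itself was 73.25 FPKM in the library labelled atx1 II and 37.61 to 39.76 FPKM in the wild type. Without ATX1 the remaining 6 summed to 51.49 FPKM, against 31.52 to 36.22 FPKM.

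For the subunits the order of levels differed. The ratio of RBL to ASH2R was 0.77 in the library labelled atx1 II, against 3.24, 3.12 and 3.69 in WT I, WT II and WT III. RBL gave 35.0% of the summed FPKM of the 3 subunit genes in the library labelled atx1 II, against 62.1%, 65.1% and 62.7% in the wild-type segments. ASH2R gave 45.4%, against 19.2%, 20.9% and 17.0%. The share of WDR5A, 19.7%, lay within its wild-type range of 14.0% to 20.3%. Summed, the 3 genes stood at 15.25 FPKM in the library labelled atx1 II and at 25.06, 14.11 and 20.93 FPKM in WT I, WT II and WT III, so the total was close to that of WT II while its make-up was not. The ratio of the subunit sum to the methyltransferase sum was 0.21 in the library labelled atx1 II, against 0.63, 0.38 and 0.53 in the wild type. That ratio depends in part on the ATX1 value in the methyltransferase sum. Without ATX1 the methyltransferase sum was 51.49 FPKM in the library labelled atx1 II and 35.47, 31.52 and 36.22 FPKM in WT I, WT II and WT III.

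**Figure D3:**
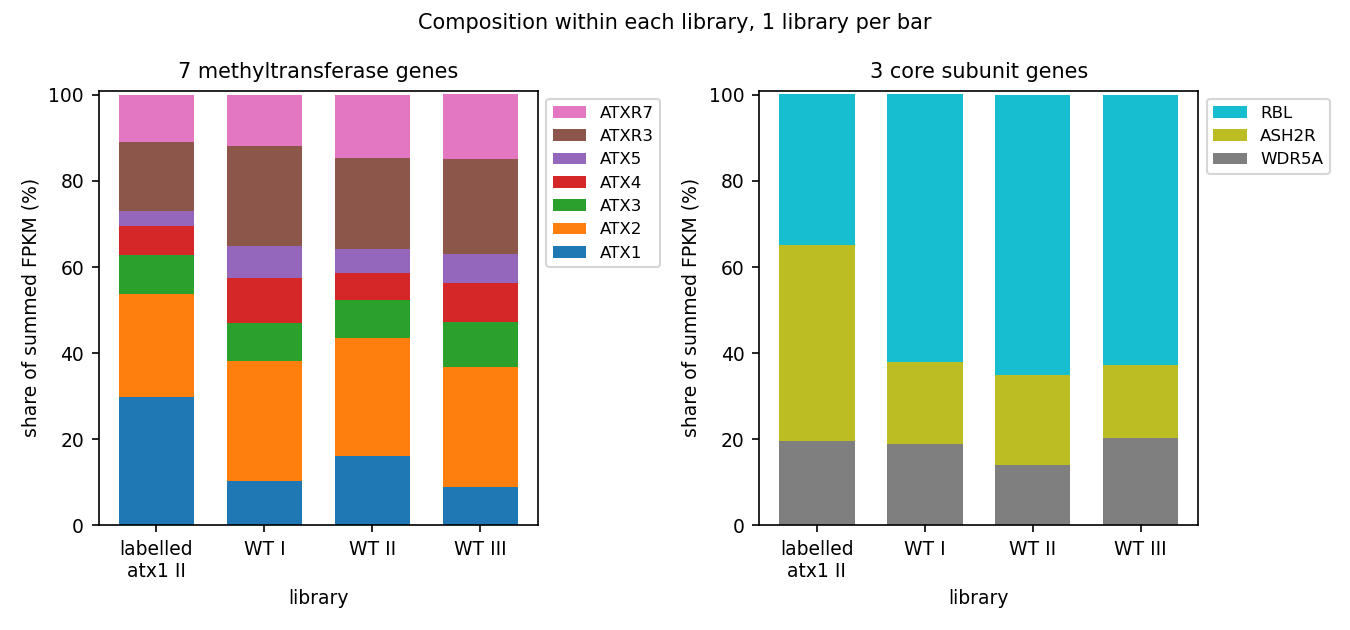
Share (%) of the summed FPKM taken by each of the 7 methyltransferase genes (left) and each of the 3 core subunit genes (right), 1 library per bar. ATX1 takes 29.7% of the left bar in the library labelled atx1 II, against 8.9% to 16.2% in the wild type, and RBL takes 35.0% of the right bar, against 62.1% to 65.1%.

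In the library labelled atx1 II the highest levels were those of ATX1, ATX2 and ATXR3, in that order, and RBL was in place 7. In each wild-type segment RBL and ATX2 were the top pair, RBL first in WT I and WT III and ATX2 first in WT II, and ATXR3 came after them. Taken at 1 kb of effective length, the 95% counting intervals of RBL and ATX2 in WT II, 7.88 to 10.66 and 8.84 to 11.77 FPKM, overlapped. In WT III those of RBL (11.56 to 14.85) and ATX2 (9.6 to 12.63) overlapped as well, and in WT I, at 13.88 to 17.37 and 9.65 to 12.6 FPKM, they did not. At the low end, ATX5 (2.01 to 3.53), ATX1 (2.75 to 4.49), ASH2R (2.77 to 4.51), ATX4 (2.81 to 4.57), ATX3 (3.32 to 5.2) and WDR5A (3.37 to 5.27) all had overlapping intervals in WT III. The longer transcripts rest on more fragments than this length allows for, so their intervals are wider here than counting alone would make them.

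The genes annotated beside ATX1 gave a view of its surroundings. Of the 5 genes on each side in the reference order, 7 were listed and 5 measured, and 0 of these 5 differed by 2-fold between the library labelled atx1 II and WT II, beside 14.1% of measured genes higher and 8.32% lower. SAD2 (AT2G31660), the next gene on one side, was at 20.71 FPKM in the library labelled atx1 II, against 13.86 in WT II, a difference of 0.55. AT2G31670, beyond it, was at 42.81 FPKM, against 74.92, a difference of -0.79. RABA5d was at 20.94 FPKM, against 15.97. On the other side AT2G31610 was at 98.58 FPKM, against 61.35, and AT2G31600 at 5.23, against 2.72 FPKM. The differences of the measured neighbours ran from -0.79 to 0.74. A count of 0 among 5 genes is near these shares. AT2G31620 (0.09 FPKM) and AT2G31690 (0.16 FPKM) had values above 0 in the library labelled atx1 II and were listed at 0 in the 3 wild-type libraries. Both lie below the 1 FPKM filter, and how many other genes show this pattern was not counted, so no direction is read from them.

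The genes with profiles most like that of ATX1 were found by the Euclidean distance between log2(FPKM + 1) values centred on their mean over the 4 libraries, among 8278 measured genes with a symbol. The nearest was ABA1 (AT5G67030), at a distance of 0.11, with 117.62 FPKM in the library labelled atx1 II and 26.22, 39.28 and 25.09 FPKM in WT I, WT II and WT III. PSF1 (0.20), GDH2 (0.22), HIPP22 (0.27) and P5CS2 (0.28) followed. Nearest to each other member were SD2-5 for ATX2, CYP86C4 for ATX3, LINC3 for ATX4, SQE2 for ATX5, MBF1B for ATXR3, ATGRIP for ATXR7, NRP2 for WDR5A, COP9 for ASH2R and RIP2 for RBL, at distances of 0.01 to 0.06. Within the 10, the closest pair was ATX2 and ATX3 (0.17). With 4 libraries many genes have near profiles, and a small distance says no more than that.

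Other chromatin genes were counted in the same way, and their counts stand beside the same shares of measured genes: for the library labelled atx1 II against WT II, 14.1% higher and 8.32% lower by 2-fold. WDR5B, the second WDR5 gene, was at 3.67 FPKM in the library labelled atx1 II, against 3.77, 2.06 and 2.71 FPKM in WT I, WT II and WT III. It had, like WDR5A, its lowest wild-type value in segment II. Of the loci AT5G14530 and AT5G66240, which neither the files nor the reference table name, AT5G14530 was higher by 2-fold, at 17.13 FPKM in the library labelled atx1 II against 6.95 in WT II. Among 11 genes of H2B ubiquitination and the PAF1 complex, a step that in yeast precedes methylation of this lysine, 0 passed 2-fold in any of the 4 comparisons. In the library labelled atx1 II against WT II 10 of these 11 were above 0, beside 64.3% of measured genes. Their median was 0.60, against 0.28 for all measured genes, and 0.33 under median-of-ratios scaling. Named by size of difference were VIP3, a PAF1 complex subunit, at 12.51 against 5.93 FPKM and UBC1, a ubiquitin-conjugating enzyme, at 147.68 against 90.67 FPKM.

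Among 11 readers of the mark, proteins with domains that bind the methylated lysine, 1 was higher by 2-fold and 0 lower in the library labelled atx1 II than in WT II (median 0.40). That gene was AL7, at 34.68 FPKM in the library labelled atx1 II against 15.36 in WT II. SHL1 was at 48.67 FPKM, against 25.27. SHL1 was also higher by 2-fold in WT II, at 25.27 FPKM against 11.16 in WT I. AL5, another reader, was at 35.41 FPKM in WT III against 12.78 in WT I. Of 9 H3K4 demethylase genes 8 were measured and 0 passed 2-fold in any comparison. JMJ18 was at 15.6 FPKM in the library labelled atx1 II, against 14.99, 25.58 and 22.33 FPKM in the wild-type segments. LDL1 was at 3.08 FPKM, against 4.77, 2.26 and 4.09 FPKM.

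SET-domain enzymes for other lysines gave a median of 0.19 for the library labelled atx1 II against WT II, with 0 of 11 measured genes higher by 2-fold and 1 lower. That 1 gene was ASHR3, an H3K36 methyltransferase gene, at 1.52 FPKM in the library labelled atx1 II against 4.51, 5.42 and 6.78 FPKM in WT I, WT II and WT III. ATXR6, which monomethylates lysine 27 and is tied to DNA replication, was the 1 gene of this list lower by 2-fold in WT II than in WT I, at 0.22 against 2.12 FPKM. The reference genes gave a median of 0.29, close to that of all measured genes, with UBQ10 at 1813.04 FPKM in the library labelled atx1 II against 909.32 in WT II and AT4G34270 at 30.86 against 20.3. The 6 cell division markers had a median of -0.36 in the same comparison and of -2.16 in WT II against WT I, with PCNA1 at 2.46 FPKM in WT II against 21.91 in WT I and KN at 6.04 against 33.19.

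**Figure D4:**
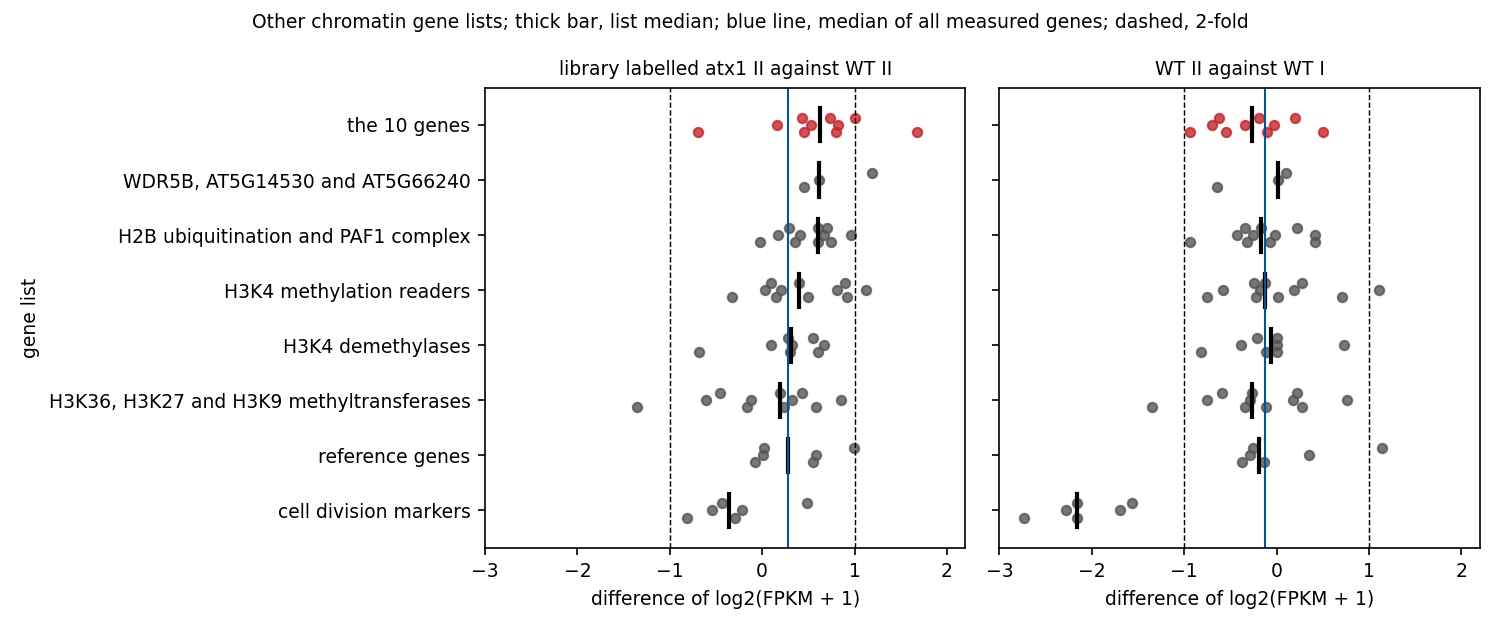
Difference of log2(FPKM + 1) of each measured gene in 8 lists, for the library labelled atx1 II against WT II (left) and WT II against WT I (right); thick bars are list medians, the blue line the median of all measured genes and dashed lines 2-fold. On the left the 10 genes (red) have a median of 0.63 and the H2B ubiquitination and PAF1 list 0.60, and on the right the cell division markers stand apart with a median of -2.16.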

How the data were processed

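RNA-seq values of 4 libraries, 1 per group, were used. The 6 H3K4me3 and input samples were left out. The authors deposited 1 FPKM value per gene and library, per the file headers. Trimmomatic, HISAT, Bowtie2, RSEM and TAIR10 are named for these samples in the submitters' processing notes, with no versions or order. The treatment of reads matching several genes is not stated there. Of the listed genes, 23238 matched the TAIR10.1 gene table, which gave names, neighbours and the gene lengths used to fit the depth.

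Differences were taken on log2(FPKM + 1) among genes at 1 FPKM or more in at least 1 library, and called at 2-fold. Depth was fitted from non-zero values under 1 FPKM in genes spanning 250 to 900 bp, searching 8000000 to 30000000 fragments; 70.2% to 72.2% of values lay within 0.15 of a whole fragment, a share inflated by the fit. Counting intervals are exact Poisson, 95%, at 1 kb of effective length. The difference calculation was tested on simulated data, from genes at 5 FPKM or more in WT II with changes larger than 2-fold. That setting does not cover the genes of the 10 below 5 FPKM in WT II, or differences near 2-fold. Alternatives were pseudocounts of 0.1 and 0.5, no filter or 5 FPKM, 3 scalings, a fold of 1.5, leaving out ATX1, and WT I or WT III as the wild type. Named were the 10 genes, the 2 measured genes of each other list with the largest difference in any comparison, the 5 neighbours of ATX1 on each side and the nearest profiles. Members and lists were chosen with earlier results of these data known. Single genes outside that rule (AL7, AT5G66240, AP3, AG, SEP3, COBL9) were picked after their values were seen. Python 3.11.15, numpy 2.4.6, pandas 2.3.3 and scipy 1.17.1 were used.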

Additional observations from a re-analysis of the deposited data

How the results depend on the processing

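With few of the 10 genes near 2-fold, single genes set the counts. For WT II against WT I the count past 2-fold was 0 and became 1, WDR5A on the lower side, with a pseudocount of 0.1 or 0.5 or with values rescaled to TPM, and 3 at 1.5-fold. For WT III against WT II it was 0 and became 1, WDR5A, with a pseudocount of 0.1, and 2 at 1.5-fold. For the library labelled atx1 II against WT II it was 2 and became 1 under median-of-ratios scaling, under upper quartile scaling and without ATX1, and 6 at 1.5-fold (5 higher, 1 lower). With a pseudocount of 0.1 it was 3, ATX4 being added. Against WT I or WT III it was 2, ATX1 on the higher side and RBL on the lower, in place of ATX1 and ASH2R. The share of measured genes past 2-fold was not counted for these comparisons, which also differ in stem segment. The count for WT III against WT I was 0 under every alternative run. The medians of the 4 comparisons moved by less than the median 95% counting half-width of the 10 differences. That width describes single genes, so it is a loose limit for a median of 10 and does not cover scaling. The largest shift of a median with scaling was in the library labelled atx1 II against WT II, from 0.63 to 0.37 under the median of ratios. ATX1 was higher by 1.42 to 2.33 and RBL differed by -1.39 to -0.69 over the alternatives to the comparison with WT II. Of the single differences, 315 alternative values lay within the 95% counting interval of the main value and 9 did not. Changing the filter or leaving out ATX1 cannot alter the difference of a single gene, so those values lay within it by construction. All 9 were differences of the library labelled atx1 II. They were ATX1, WDR5A and RBL against WT III, and ATX1, ATX4, WDR5A, ASH2R and RBL against WT I. The last was ATX2 against WT II under median-of-ratios scaling. The counts of 315 and 9 rest on intervals taken at 1 kb of effective length. For longer transcripts those intervals are too wide, which favours values lying within them. No difference called at 2-fold changed sign. No paired analysis was possible because each group has 1 library. Depth limits the order of the genes at 2 to 5 FPKM.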
